A study of Mus musculus with 2 samples.

Results

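Chemokine receptors are the surface proteins by which leukocytes read chemokine gradients and move into and through tissue. The 9 receptor genes followed here were Ccr1, Ccr2, Ccr6, Ccr7, Ccr9, Cx3cr1, Cxcr4, Cxcr5 and Xcr1. They were chosen by gene symbol, and all 9 were found among the 31053 genes of the count tables. Their transcripts were counted in single cells sorted from the mouse colon. The recipients were CD45.1 mice whose blood-forming cells had been replaced by bone marrow of CD45.2 donors. The donors lacked the IL-10 receptor in one group (IL-10R KO, here KO). In the other group (IL-10R/CerS2 DKO, here DKO) they lacked CerS2, a ceramide synthase, as well, so loss of the IL-10 receptor was shared by both groups and no intact donor is analysed here. The receptor was removed through its Il10rb chain, which the IL-22 receptor also uses. Every donor blood cell of a group carried the loss or losses of that group, and the loss of CerS2 was in the DKO donors only. The marrow was engrafted for weeks before use, per the study's methods. Ages and numbers of mice per library are not given in the sources used here. There was 1 library per genotype, so genotype cannot be told apart from mouse, sort or library. No test was run, and every interval below is a 95% interval that covers counting error only.

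Chemokine receptors are G protein-coupled receptors whose ligands are small secreted proteins. In the gut, Ccr2 brings Ly6C-high monocytes out of bone marrow and blood, and as these cells mature into resident macrophages they are known to lose Ccr2 and gain Cx3cr1, the receptor of fractalkine. Ccr7 guides mature dendritic cells and naive lymphocytes to lymph nodes, Cxcr5 and Ccr6 place B cells in follicles and near the epithelium, Ccr9 is the small intestinal homing receptor of lymphocytes and plasmacytoid dendritic cells, Xcr1 marks cross-presenting dendritic cells, Ccr1 serves neutrophils and monocytes, and Cxcr4 is the widely shared receptor of Cxcl12.

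The KO library held 2584 barcodes and the DKO library 742, of which 2443 and 730 passed the filter on detected genes and mitochondrial share, with medians of 4715 and 3722 UMIs per cell. A UMI is a molecular tag that lets each captured RNA molecule be counted once. The libraries shared 1 barcode sequence. Cers2, deleted only in the DKO donors, had 552 UMIs in 447 KO cells against 2 UMIs in the DKO library. Il10rb gave 74 UMIs in the KO library and 14 in the DKO library, and whether these lie outside its deleted part was not tested. Each cell was put in a class by how many markers of a list it showed, and no receptor was a marker. The sort for CD11b, CD11c and CD64 was meant to keep neutrophils and lymphocytes out, and the label calls the cells colon macrophages. Monocyte/macrophage-gated cells were 1475 of the 2443 KO cells and 313 of the 730 DKO cells. B cell-gated cells were 218 in KO and 167 in DKO, T cell-gated cells 283 and 106, and neutrophil-gated cells 162 and 41, so these classes were present in both libraries and their receptors could be described. The 1475 KO cells comprised 234 monocyte-gated cells (3 or more of Ly6c2, Vcan, Plac8, Hp, F13a1 and Chil3, and at most 1 macrophage marker), 482 macrophage-gated cells (3 or more of C1qa, C1qb, C1qc, Apoe, Cd81 and Mrc1, and at most 1 monocyte marker), 244 intermediate cells with 2 or more of both, 34 nonclassical monocytes, 165 cells with Arg1 and Nos2 markers, and 316 unplaced cells. The same classes held 47, 129, 40, 15, 0 and 82 cells in DKO. The gates are ranges on a count of markers, and 202 of the 234 KO monocyte-gated cells and 268 of the 482 KO macrophage-gated cells sat at a limit of their gate.

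Each receptor had its own distribution over the classes, and the main features were seen in both libraries. Ccr2 was found most often in monocyte-gated cells, Cx3cr1 in nonclassical monocytes and macrophages, and Ccr7 in mature dendritic cells. Type 2 dendritic cells and B cells came next for Ccr7, in an order that differed between the libraries. Ccr6 and Cxcr5 were found mostly in B cells. Ccr1 and Cxcr4 were spread over the myeloid classes and reached their highest KO level in neutrophils. Ccr9 and Xcr1 were rare, with 78 and 46 UMIs over both libraries.

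**Figure D1:**
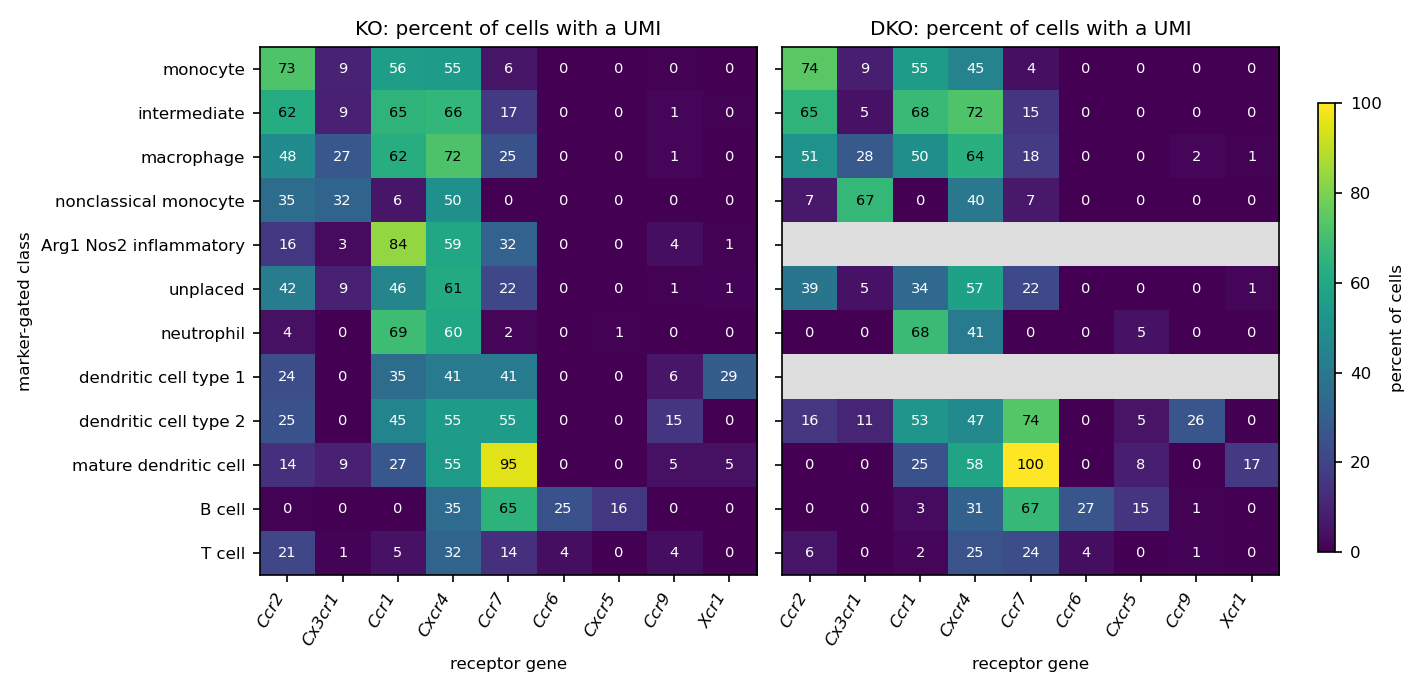
Percent of cells with at least 1 UMI of each receptor gene (columns) in each marker-gated class (rows), in the KO library (left) and the DKO library (right), with grey rows for classes under 10 cells. Ccr2 falls from 72.6% of KO and 74.5% of DKO monocyte-gated cells to 48.1% and 51.2% of macrophage-gated cells, and Ccr7 reaches 95.5% and 100% of mature dendritic cells.

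Ccr2 (ENSMUSG00000049103, chromosome 9, 124101950 to 124113557, plus strand, GRCm38) encodes the receptor of Ccl2, Ccl7 and Ccl12. Its level is given as CPM, the UMIs of the gene per 1000000 UMIs of the class. In KO it had 482 UMIs in 170 of the 234 monocyte-gated cells, a level of 409 CPM (373 to 447). The KO level was 280.0 CPM (253 to 309) in intermediate cells and 161 CPM (147 to 176) in macrophage-gated cells. These 3 classes formed a descending series in KO, and no interval overlapped the next. In DKO the level was 365 CPM (293 to 448) in monocyte-gated cells, 413 CPM (340 to 497) in intermediate cells and 230.1 CPM (198 to 265) in macrophage-gated cells. The DKO monocyte and intermediate intervals overlapped, and both lay above that of macrophages. The KO cells with Arg1 and Nos2 markers, enzymes that share arginine as a substrate, were low in Ccr2, at 45.5 CPM (34.0 to 59.7) in 27 of 165 cells. In B cells, which served as the background of free RNA, Ccr2 had 1 UMI over 218 KO cells and 0 UMIs over 167 DKO cells, which allows a share of up to 1.80%. The median B cell held 2428 UMIs in KO and 2516 in DKO, against 5178.5 and 5375 in monocyte-gated cells. At an equal depth of 1500 UMIs per cell, a Ccr2 UMI would be found in 40.1% of KO monocyte-gated cells, 31.5% of intermediate cells and 20.6% of macrophages, and in 40.4%, 38.0% and 26.9% in DKO, against 0.348% of KO B cells.

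Cx3cr1 (ENSMUSG00000052336, chromosome 9, 119901616 to 120069879, minus strand) was highest in nonclassical monocytes, the vessel-patrolling monocytes in which it is known to be abundant, with 15 UMIs in 11 of 34 KO cells and 16 UMIs in 10 of 15 DKO cells. Macrophage-gated cells came next, with 292 UMIs in 130 of 482 KO cells, or 92.5 CPM (82.2 to 104), and 90 UMIs in 36 of 129 DKO cells, or 110.2 CPM (88.6 to 135). In KO the nonclassical and macrophage intervals overlapped, whereas in DKO nonclassical monocytes, at 254 CPM (145 to 413), lay above macrophages. Monocyte-gated cells had 55 UMIs in KO, 19 of them in 1 cell, and 4 UMIs in DKO. Their levels were 46.6 CPM (35.1 to 60.7) and 16.0 CPM (4.37 to 41.0), and without that 1 cell the KO level was 30.7 CPM (21.5 to 42.5). A UMI was found in 22 of the 234 KO cells and 4 of the 47 DKO cells, shares whose intervals overlapped. Intermediate cells, at 21.4 CPM in KO (14.5 to 30.3), lay below KO monocytes with that cell and overlapped them without it, and in DKO, at 26.0 CPM (10.5 to 53.7), they overlapped DKO monocytes. Of the UMIs of the DKO intermediate cells, 6 lay in 1 cell, and without it the level was 3.90 CPM from 1 UMI. The KO cells with Arg1 and Nos2 markers had 11 Cx3cr1 UMIs in 5 of 165 cells, so they were low in both receptors. B cells had no Cx3cr1 UMI in either library, which allows up to 1.38% of the 218 KO cells and 1.80% of the 167 DKO cells. At 1500 UMIs per cell the Cx3cr1 share of macrophages was 10.9% for KO and 12.7% for DKO, against 3.68% of KO monocyte-gated cells.

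The bases just upstream of the RefSeq start sites are shown for Ccr2, Cx3cr1 and Ccr1. Ccr2 and Cx3cr1 differed in opposite directions between macrophage-gated and monocyte-gated cells. Ccr1 lies beside Ccr2 and did not follow it. Each sequence is the 250 bases before the RefSeq start in the direction of transcription (GRCm38.p6), and capitals mark a match to a PU.1 motif (GAGGAA), a C/EBP motif (TTGCNNAA) or an NF-kB motif, each searched on both strands. The Ccr1 window, chr9:123968693-123968942 on the minus strand, held 1 PU.1 match that began 129 bases before the start. The Ccr2 window, chr9:124101933-124102182 on the plus strand, and the Cx3cr1 window, chr9:120068297-120068546 on the minus strand, held no match to these letters. The gene spans given above begin further upstream than these RefSeq starts. Most of the Ccr2 window and all of the Cx3cr1 window lie inside those spans. Windows at the other starts were not searched. Of all 32851 promoter windows of this length, 23.3% held the PU.1 motif, 9.56% the C/EBP motif and 0.356% the NF-kB motif. Ccr9, Xcr1, Ccr1 and Ccr2 lie within 435 kb of each other on chromosome 9.
Ccr2: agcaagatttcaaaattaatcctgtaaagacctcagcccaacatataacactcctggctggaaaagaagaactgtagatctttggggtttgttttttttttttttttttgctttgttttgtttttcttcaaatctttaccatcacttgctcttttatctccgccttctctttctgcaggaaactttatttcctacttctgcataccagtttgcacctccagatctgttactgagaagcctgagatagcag
Cx3cr1: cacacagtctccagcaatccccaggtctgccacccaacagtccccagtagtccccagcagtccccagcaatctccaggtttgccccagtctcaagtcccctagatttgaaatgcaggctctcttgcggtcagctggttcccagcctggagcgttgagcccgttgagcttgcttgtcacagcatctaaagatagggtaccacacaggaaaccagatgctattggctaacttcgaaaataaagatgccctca
Ccr1: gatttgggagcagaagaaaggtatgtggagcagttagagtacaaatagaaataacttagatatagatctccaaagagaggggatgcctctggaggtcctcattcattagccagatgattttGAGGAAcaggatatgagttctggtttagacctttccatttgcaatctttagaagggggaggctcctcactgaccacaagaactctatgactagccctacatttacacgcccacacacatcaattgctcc

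The shift from Ccr2 to Cx3cr1 was then measured as the ratio of macrophage-gated over monocyte-gated cells. Ccr2 was lower in macrophages, with a log2 ratio of -1.34 (-1.53 to -1.16) in KO and a smaller one of -0.67 (-1.03 to -0.29) in DKO. Cx3cr1 was higher in macrophages, with log2 ratios of 0.98 (0.57 to 1.43) for KO and 2.62 (1.38 to 4.69) for DKO. With the cell richest in the gene left out of each class, the KO ratio of Cx3cr1 was 1.53 (1.04 to 2.09). The direction of each receptor was thus the same in both libraries. The DKO value of Ccr2 depended on how the classes were made, since with classes taken from clusters it was -0.28 (-0.56 to 0.01). Of the genes with 10 or more UMIs over both classes, 22.2% differed 2-fold or more between macrophage-gated and monocyte-gated cells in KO and 26.7% in DKO. Of the 9 receptors 5 had enough UMIs. In KO, Ccr7 was more than 2-fold higher in macrophages, Ccr2 more than 2-fold lower, and Ccr1, Cxcr4 and Cx3cr1 were within 2-fold. In DKO, Ccr7, Cx3cr1 and Cxcr4 were 2-fold or more higher and Ccr1 and Ccr2 were within 2-fold. The median log2 ratio of these 5 receptors was 0.54 in KO and 1.02 in DKO, against 0.02 and 0.07 over all genes with enough UMIs.

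To see the course between these end points, all monocyte/macrophage-gated cells were ordered by an index, the number of macrophage markers seen minus the number of monocyte markers seen. In the lowest range, -6 to -3, Ccr2 stood at 425 CPM (384 to 470) for KO and 351 CPM (274 to 442) for DKO. In the next range, -2 to -1, it was 213 CPM in KO and 200.5 CPM in DKO. Most of the fall in Ccr2 thus lay between the first and the second range in both libraries. From there the libraries parted. KO stayed between 156 and 173 CPM over the remaining ranges, and DKO stood at 212, 265 and 260.2 CPM. Without nonclassical monocytes and cells with Arg1 and Nos2 markers, KO went on falling over these ranges, with 208, 192 and 174 CPM. In the highest range the KO interval of 151 to 179 CPM and the DKO interval of 227 to 296 CPM did not overlap. Cx3cr1 did not mirror this course. In KO it was 49.7, 29.4, 20.2 and 18.2 CPM over the first 4 ranges, with 19 of the 45 UMIs of the first range in 1 cell, and reached 87.9 CPM (78.2 to 98.4) only in the range of 3 to 6. In DKO it was 14.8, 16.9, 63.1 and 20.4 CPM, then 110.1 CPM (89.1 to 134). The DKO value at an index of 0 came from 11 UMIs, and without the same 2 classes it was 14.0 CPM from 2 UMIs. Cx3cr1 was thus highest in cells whose macrophage markers outnumbered their monocyte markers by 3 or more. In the ranges before that, Ccr2 was already below its level of the first range.

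**Figure D2:**
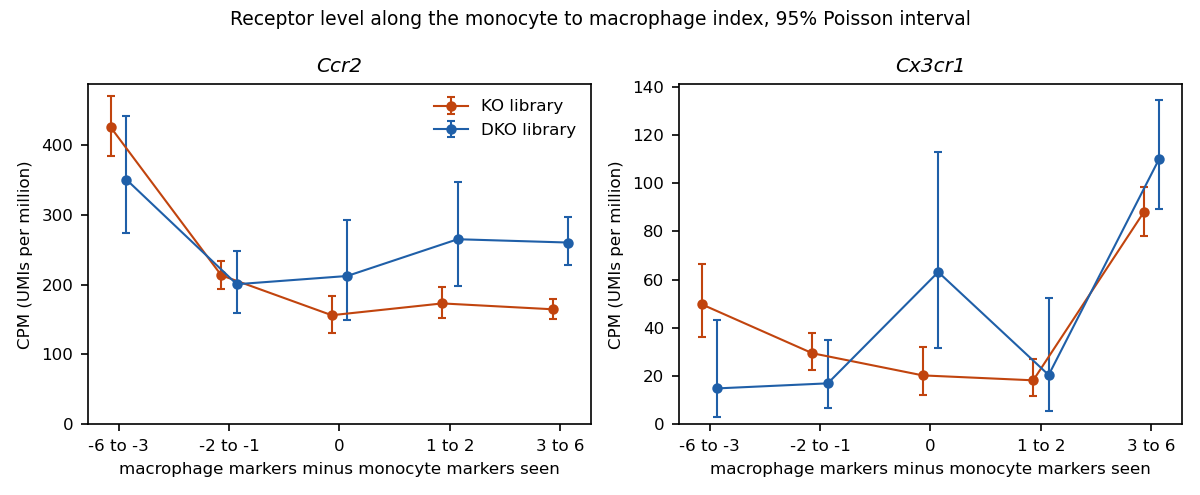
Level of Ccr2 (left) and Cx3cr1 (right) in CPM, from 0, over 5 ranges of the index of macrophage minus monocyte markers, in the KO (red) and DKO (blue) libraries, with exact 95% Poisson intervals as bars. Ccr2 drops from 425 to 213 CPM in KO over the first step, and Cx3cr1 in KO stays at or below 49.7 CPM until the last range, where it is 87.9 CPM.

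The 2 receptors were also asked for in the same cell. Of the 482 KO macrophage-gated cells, 56 had UMIs of both, 176 of Ccr2 only, 74 of Cx3cr1 only and 176 of neither. Ccr2 was found in 43.1% (34.4 to 52.1) of the macrophages with a Cx3cr1 UMI and in 50% (44.7 to 55.3) of those without. In DKO these shares were 38.9% (23.1 to 56.5) and 55.9% (45.2 to 66.2). The point values were lower in Cx3cr1-positive macrophages in both libraries, but the intervals overlapped. A cell with no UMI of a gene may still have held its RNA at this depth.

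Clusters with macrophage-gated cells as their largest gated class were not of one kind in their receptors. Clustering with the receptors left out of the variable genes gave 4 clusters in which macrophages were the largest gated class, described here by number, and cluster 0, in which monocytes were. Cluster 7 was led by Apoe, Ms4a7, Ccl8, Ccl12 and Art2b and had the complement gene C1qa in 100% of its cells in both libraries. Of these 5 clusters it carried the most Cx3cr1, with 194 CPM (167 to 224) for KO and 320.0 CPM (255 to 396) for DKO, and little Ccr2, at 78.4 CPM and 107 CPM. Cluster 3 was led by Retnla, Mrc1, C4b, Ccl7 and Lpl, and had Ly6c2 at 68.8 and 71.6 CPM. Its Ccr2 level was 413 CPM (366 to 463) for KO and 446 CPM (385 to 515) for DKO. The monocyte cluster 0 had Ccr2 at 354 CPM (330 to 379) for KO and 324 CPM (273 to 380) for DKO. The intervals of clusters 3 and 0 overlapped in KO, and in DKO cluster 3 lay above. Cluster 1, led by Spint1, Cfb, Anpep, Olr1 and Mmp14, was low in both, with Ccr2 at 121 and 122 CPM and Cx3cr1 at 31.8 and 22.6 CPM, and carried Ccr7 at 333 CPM in each library. Cluster 9 was led by Ccnb1ip1, the stress-induced genes Atf3, Hspa1a and Fos, and Hes1. It held Ccr2 at 359 and 577 CPM and the most Cxcr4 of the 5, with 656 CPM (597 to 720) for KO and 637 CPM (491 to 814) for DKO. Its cells were of several gated classes, and macrophages were 35.2% of those gated. All these levels are those of whole clusters. Macrophages were 45.7% of the gated cells in cluster 1, 70.0% in cluster 3 and 97.6% in cluster 7, and monocytes 43.9% in cluster 0. High Ccr2 was thus found in clusters where macrophages were the largest gated class as well as in the monocyte cluster. High Ccr2 and high Cx3cr1 lay in different clusters.

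**Figure D3:**
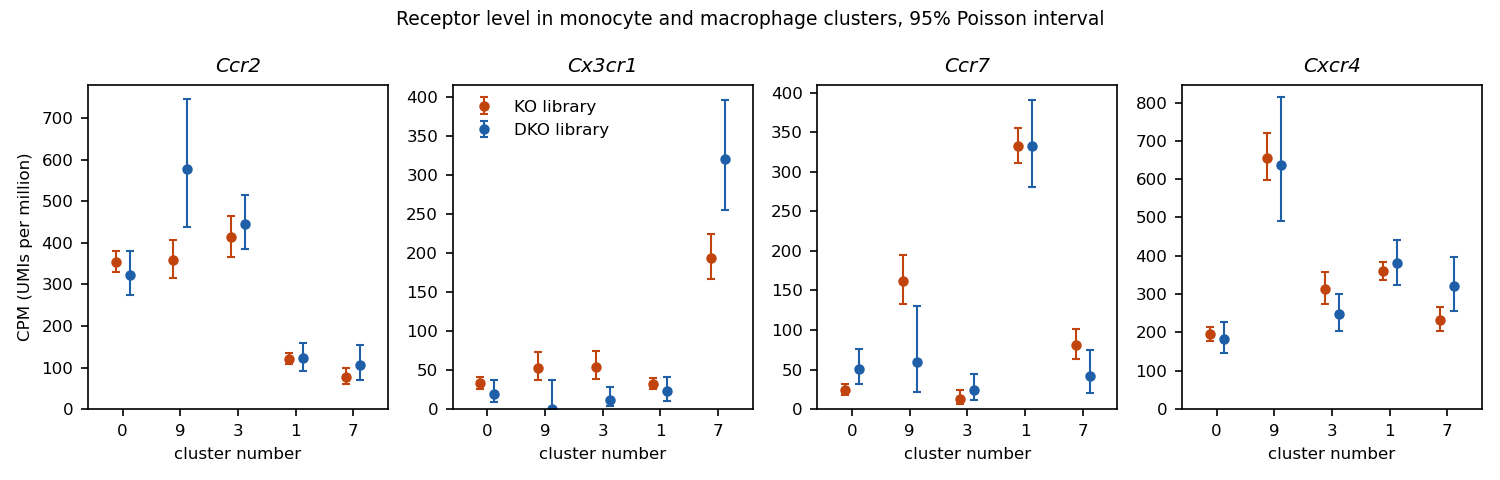
Level of Ccr2, Cx3cr1, Ccr7 and Cxcr4 in CPM (each axis from 0) in cluster 0, where monocytes were the largest gated class, and clusters 9, 3, 1 and 7, where macrophages were, in the KO (red) and DKO (blue) libraries with exact 95% Poisson intervals. Cx3cr1 stands out in cluster 7, Ccr7 in cluster 1 and Cxcr4 in cluster 9, and Ccr2 is high in clusters 0, 9 and 3.

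Ccr1 (ENSMUSG00000025804, chromosome 9, 123962124 to 123968692, minus strand), a receptor of Ccl3, Ccl5, Ccl6 and Ccl9, was at its highest level in neutrophils, with 765 CPM (675 to 864) for KO and 699 CPM (521 to 920) for DKO, and with a UMI in 112 of 162 and 28 of 41 cells. Neutrophils were shallow, with medians of 1654.5 and 1627 UMIs. At 1500 UMIs per cell Ccr1 was seen in 61.3% of KO and 60.9% of DKO neutrophils, against 27.7% and 22.6% of macrophages. Ccr1 was nearly level from monocyte to macrophage. In KO it was at 246 CPM in monocyte-gated cells, 257 CPM in intermediate cells and 249 CPM in macrophages, and the log2 ratio of macrophages over monocytes was 0.02 (-0.17 to 0.22). In DKO that ratio was -0.36 (-0.78 to 0.08). The KO cells with Arg1 and Nos2 markers came second to neutrophils, at 326 CPM (293 to 361) in 138 of 165 cells. Nonclassical monocytes stood apart from other monocytes, with 3 UMIs over 34 KO cells and 0 UMIs over 15 DKO cells, which allows a share of up to 20%. B cells, its background class, had 0 Ccr1 UMIs in the KO library and 5 in 167 DKO cells, a share of 2.99%.

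Cxcr4 (ENSMUSG00000045382, chromosome 1, 128588199 to 128592293, minus strand) had the most UMIs of the 9 receptors in KO, 3513, and was found in every class of 10 or more cells, so no class could serve as its background. Neutrophils were again highest in KO, at 838 CPM (744 to 941). In DKO they stood at 384 CPM (255 to 555), which overlapped macrophages at 329 CPM (291 to 371). Within the monocyte to macrophage axis Cxcr4 moved against Ccr2, with 225 CPM in monocyte-gated cells and 327 CPM in macrophages in KO and 160.2 and 329 CPM in DKO. The log2 ratios were 0.54 (0.35 to 0.74) and 1.02 (0.56 to 1.56). Type 1 dendritic cells were lowest in KO, at 59.6 CPM (31.7 to 102).

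Ccr7 (ENSMUSG00000037944, chromosome 11, 99144196 to 99155077, minus strand), the receptor of Ccl19 and Ccl21, reached the highest level of the 9 receptors in any class. Mature dendritic cells, gated by Fscn1, Ccl22 and other maturation genes, held 579 UMIs in 21 of 22 KO cells and 489 UMIs in 12 of 12 DKO cells, or 3115 CPM (2867 to 3380) and 3925 CPM (3584 to 4288). Type 2 dendritic cells had 540 CPM (436 to 661) from 20 KO cells and 1627 CPM (1453 to 1816) from 19 DKO cells. B cells were alike in the 2 libraries, at 575 CPM (515 to 641) and 568 CPM (502 to 639), with a UMI in 64.7% and 67.1% of cells. Neutrophils had 22 UMIs in 3 of 162 KO cells and 0 UMIs in 41 DKO cells, which allows a share of up to 7.32%. The monocyte-gated cells were low, with 37 UMIs in 13 of 234 KO cells and 3 UMIs in 2 of 47 DKO cells. Macrophages were higher than monocytes by 2.47 on the log2 scale (2.01 to 3.01) in KO and 2.95 (1.57 to 5.47) in DKO.

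Ccr7 in monocyte/macrophage-gated cells was concentrated in few of them. In KO, 92 of 1475 cells had 5 or more UMIs and held 73.1% of the Ccr7 UMIs of this population, and in DKO 16 of 313 cells held 77.7%. These cells had Csf1r at 387 CPM in KO, close to the 390.0 CPM of cells with no Ccr7 UMI, and 173 CPM in DKO against 350 CPM. Of the defining markers of mature dendritic cells, Fscn1 was at 8.33 CPM in KO and 6.40 CPM in DKO. It was at 0.616 and 0 CPM in cells with no Ccr7 UMI, and at 452 and 778 CPM in the mature dendritic cell gate. The median cell with 5 or more Ccr7 UMIs showed 0 of the 6 markers in both libraries, as did the median cell with no Ccr7 UMI. Ccl22, another of these markers, stood higher than in cells with no Ccr7 UMI, at 65.2 against 4.01 CPM for KO and 32.0 against 2.07 CPM for DKO, and reached 829 and 690.2 CPM in the mature dendritic cell gate. Of the Ccr7-high cells, 13% in KO and 18.8% in DKO showed 2 or more of the 6 markers, against 0.509% and 0.380% of cells with no Ccr7 UMI. Cells with 3 or more had already been placed in the mature dendritic cell gate. Lyz2, the lysozyme gene of monocytes and macrophages, was lower in the Ccr7-high cells, at 1541 against 3480 CPM for KO and 3084 against 5248 CPM for DKO. The part of dendritic cells in these values was not tested. Flt3, the dendritic cell growth factor receptor, was at 0 in both libraries. In cells with no Ccr7 UMI it was at 0.616 CPM for KO and 0.690 CPM for DKO. Zbtb46 was higher in the Ccr7-high cells, at 5.55 against 0.616 CPM for KO and 6.40 against 2.07 CPM for DKO. These levels rest on few UMIs. Both genes are markers of the type 2 dendritic cell gate, which was read before the monocyte/macrophage gate. The Ccr7-high cells were low in Ccr2, at 73.6 and 38.4 CPM, against 234 and 289 CPM in cells with no Ccr7 UMI. Outside the macrophage clusters Ccr7 was also high in cluster 10, led by Plet1, Cd209a, Ppp1r14a, Tbc1d4 and Tnni2, with 615 CPM for KO and 1132 CPM for DKO. This cluster held 15 of the 20 KO and 16 of the 19 DKO type 2 dendritic cells, and 20 of 316 KO and 15 of 82 DKO unplaced cells.

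The lymphoid receptors Ccr6 and Cxcr5 marked B cells. Ccr6 (ENSMUSG00000040899, chromosome 17, 8236043 to 8257141, plus strand), the receptor of Ccl20, had 85 UMIs in 55 of 218 KO B cells and 70 UMIs in 45 of 167 DKO B cells, or 147 CPM (118 to 182) and 147 CPM (114 to 185). Macrophages, its background class, had 1 UMI over 482 KO cells and 0 UMIs over 129 DKO cells, which allows a share of up to 2.33%. T cells had 19 UMIs in 10 of 283 KO cells and 6 UMIs in 4 of 106 DKO cells. Cxcr5 (ENSMUSG00000047880, chromosome 9, 44511787 to 44561877, minus strand), the receptor of Cxcl13, had 38 UMIs in 35 KO B cells and 26 UMIs in 25 DKO B cells, or 65.8 CPM (46.6 to 90.4) and 54.5 CPM (35.6 to 79.8). No Cxcr5 UMI was found in any of the 1475 KO or 313 DKO monocyte/macrophage-gated cells, which allows shares of up to 0.203% and 0.958%. B cells thus carried Ccr7, Ccr6 and Cxcr5 at levels that differed between the libraries by less than counting error, with DKO over KO log2 ratios of -0.02, 0.00 and -0.27 and intervals that all included 0.

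Ccr9 and Xcr1 were seen in few cells. Ccr9 (ENSMUSG00000029530, chromosome 9, 123678439 to 123784330, plus strand), the receptor of Ccl25, had 11 UMIs in the only plasmacytoid dendritic cell that was gated, a KO cell. T cells had 22 UMIs in 11 of 283 KO cells and 2 UMIs in 1 of 106 DKO cells. Type 2 dendritic cells had 4 UMIs in 3 of 20 KO cells and 8 UMIs in 5 of 19 DKO cells, and type 1 dendritic cells 3 UMIs in 1 of 17 and 5 UMIs in 3 of 6 cells. Macrophages, the background class, had 7 UMIs in 7 of 482 KO cells and 2 UMIs in 2 of 129 DKO cells, a share of 1.45% and 1.55% at medians of 6428 and 5942 UMIs, and the KO T cell share of 3.89% (1.96 to 6.85), at a median of 3793 UMIs, overlapped that of KO macrophages (0.586 to 2.97). The DKO share of type 2 dendritic cells, 26.3% (9.15 to 51.2), at a median of 9899 UMIs, did not overlap that of DKO macrophages (0.188 to 5.49). Xcr1 (ENSMUSG00000060509, chromosome 9, 123852315 to 123862029, minus strand), the receptor of Xcl1, had 16 UMIs in 5 of 17 KO type 1 dendritic cells and 7 UMIs in 2 of 6 DKO cells. Mature dendritic cells had 2 Xcr1 UMIs in each library, and monocyte/macrophage-gated cells had 6 UMIs over 1475 KO cells and 4 UMIs over 313 DKO cells. B cells had none, which allows up to 1.38% of the KO cells.

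T cells carried Ccr2, Ccr7 and Cxcr4. Ccr2 had 173 UMIs in 60 of 283 KO T cells, or 131 CPM (112 to 152), and 16 UMIs in 6 of 106 DKO T cells, or 37.8 CPM (21.6 to 61.4). In B cells of the same libraries 1 and 0 UMIs were found. The macrophage genes Lyz2, Cd14 and Csf1r had 14, 10 and 2 UMIs in the same KO T cells, and there were 12357 Ccr2 UMIs per 1000 Lyz2 UMIs, against 66.7 in monocyte/macrophage-gated cells. In the 274 KO T cells with no Lyz2 UMI, Ccr2 was at 125 CPM. Ccr2 was concentrated in T cell cluster 8, led by Tnfrsf4, Icos, Ctla4, Rora and Lat, with 316 CPM (271 to 366) for KO and 144 CPM (83.6 to 230) for DKO. T cell cluster 5, led by Ikzf2, Xcl1, Cd7, Nkg7 and Ctsw, had Ccr2 at only 14.2 CPM in KO. Cluster 8 also held 20 of the 111 KO UMIs of Ccr6 and 20 of the 60 KO UMIs of Ccr9. Cluster 14, led by Dusp10, Lef1, Itm2a, Trib2 and Gimap3, held Ccr7 at 721 and 718 CPM from 18 KO and 13 DKO cells. These T cell clusters thus differed in their receptors, with Ccr2 high in cluster 8 and Ccr7 in cluster 14. Cluster 8 made up 118 of the 283 KO T cells and 27 of the 106 DKO T cells.

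How the receptors differed between genotypes was described class by class. Over all monocyte/macrophage-gated cells, 10.3% of the genes with 10 or more UMIs differed 2-fold or more between DKO and KO. Of the 7 receptors with enough UMIs, 1 did, Xcr1, on 6 and 4 UMIs and with an interval that included 0, and 6 were within 2-fold. Ccr2 was higher in DKO macrophages, with a log2 ratio of 0.52 (0.27 to 0.76), and in intermediate cells, with 0.57 (0.24 to 0.87), but not in monocyte-gated cells, with -0.16 (-0.50 to 0.16). Over all monocyte/macrophage-gated cells the ratio was 0.31 (0.16 to 0.46), and without the cells with Arg1 and Nos2 markers, gated in KO only, it was 0.15, with an interval that included 0 and reached 0.30. The makeup of the macrophages moved with the Ccr2 value. The Ccr2-rich cluster 3 held 53 of the 129 DKO macrophage-gated cells and 96 of the 482 KO cells, and within clusters 1, 3 and 7 the Ccr2 intervals of the libraries overlapped. In cluster 9 they did not, with 359 CPM (315 to 407) for KO and 577 CPM (438 to 746) for DKO. Cluster 9 held 133 KO and 23 DKO cells, of which 47 and 4 were macrophage-gated. The part of this makeup in the difference was not tested.

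Cx3cr1 in macrophages had a log2 ratio of DKO over KO of 0.26 (-0.11 to 0.60), which included 0, and in monocyte-gated cells one of -1.38 (-3.47 to -0.10), on 4 and 55 UMIs. With the cell richest in Cx3cr1 left out of each library, the monocyte ratio was -1.12 (-3.67 to 0.34), which included 0. In cluster 7 the Cx3cr1 intervals of the libraries, given above, did not overlap. Ccr1 was lower in DKO macrophages, with -0.29 (-0.55 to -0.05), and Ccr7 was lower there, with -0.71 (-1.05 to -0.39), yet higher in DKO unplaced cells, with 0.75 (0.50 to 0.998), T cells, with 0.96 (0.52 to 1.38), type 2 dendritic cells, with 1.59 (1.25 to 1.94), and mature dendritic cells, with 0.33 (0.16 to 0.51). Ccr1 was higher in DKO type 2 dendritic cells, with 1.19 (0.43 to 2.06) from 20 KO and 19 DKO cells. Beside the Ccr7 values, cluster 1, which carried Ccr7 at 333 CPM in each library, held 178 of the 482 KO and 27 of the 129 DKO macrophages, and cluster 10, given above, held a larger share of the DKO unplaced cells. Cxcr4 was nearly equal in macrophages, with 0.01 (-0.19 to 0.20), and lower in DKO neutrophils, with -1.10 (-1.74 to -0.56). In T cells Ccr2 was lower in DKO, with -1.75 (-2.63 to -1.05), and with the richest cell of each library left out the ratio was -2.44 (-3.67 to -1.56). Beside these T cell values, cluster 8 held a larger share of the KO T cells, as given above, and cluster 14 held 17 of the 283 KO and 13 of the 106 DKO T cells. Within cluster 8 the Ccr2 intervals of the libraries still did not overlap. The part of the makeup in the Ccr7 values of macrophages, unplaced cells and T cells was not tested.

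**Figure D4:**
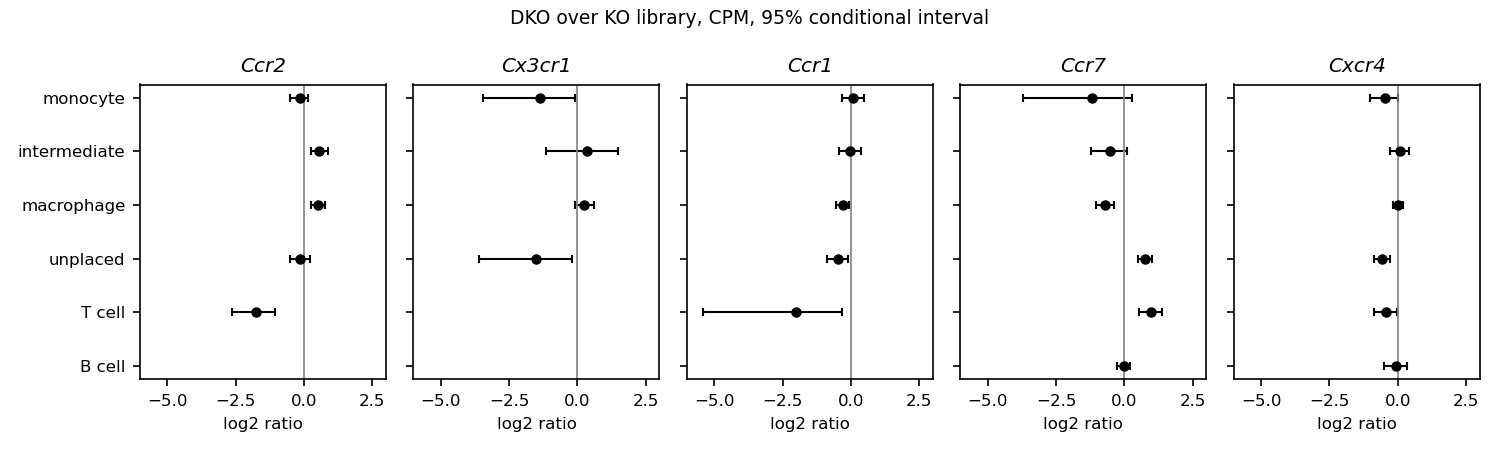
Log2 ratio of DKO over KO in CPM (horizontal axis) for 5 receptors in 6 marker-gated classes (rows), with exact 95% conditional intervals, and no point where a library had 0 UMIs or both together had under 10. Ccr2 lies above 0 in intermediate cells and macrophages and at -1.75 in T cells, and Cxcr4 lies at 0.01 in macrophages.

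Of 14 other chemokine receptors listed, 5 had 50 or more UMIs. Ccrl2, a receptor that binds chemerin, had 10280 UMIs. Ccrl2 was highest in neutrophils, at 3427 CPM for KO and 2263 CPM for DKO, and was higher in macrophages than in monocyte-gated cells by 1.12 (0.98 to 1.26) on the log2 scale in KO and 1.42 (1.03 to 1.87) in DKO. Cxcr2, a main receptor of neutrophils, was at 499.5 CPM in KO and 823 CPM in DKO neutrophils and at 0.951 and 14.7 CPM in macrophages. Cxcr6 and Cxcr3, receptors of effector T cells, were at 202 and 46.9 CPM among KO T cells and at 68.5 and 33.1 CPM among DKO T cells. Ackr2 was the 1 listed receptor with 0 UMIs.

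Of 17 chemokines listed as ligands of the receptors, 11 had 50 or more UMIs. The Ccr2 ligands were higher in macrophages, where Ccr2 was lower, than in monocyte-gated cells. Ccl7 had 568 UMIs in KO macrophages and 2 in monocyte-gated cells, and the DKO counts were 316 and 1. Ccl12 had 327 and 4 UMIs in these KO classes, with DKO counts of 90 and 0, and Ccl2 was higher in macrophages by 0.51 (0.17 to 0.87) on the log2 scale in KO and 1.64 (1.01 to 2.42) in DKO. Ccl8, a further ligand of this group, had 2141 UMIs in KO macrophages and 131 in DKO macrophages and none in monocyte-gated cells. The Ccr1 ligands were not of one pattern. Ccl3 and Ccl5, and with them Ccl4, were higher in macrophages than in monocyte-gated cells in both libraries. The log2 ratios of Ccl3, Ccl4 and Ccl5 were 1.21, 2.22 and 1.08 in KO and 2.51, 1.63 and 3.63 in DKO. Single cells held much of these ligands. All 8 Ccl3 UMIs of the DKO monocyte-gated cells lay in 1 cell, so the DKO ratio of Ccl3 rests on that cell. Of the Ccl5 UMIs, 970 of 1768 in DKO macrophages and 27 of 43 in DKO monocyte-gated cells lay in 1 cell each. Without those cells macrophages stood at 987 CPM of Ccl5 in place of 2164 CPM, and the ratio was 3.86. With the cell richest in Ccl4 left out of each class, its ratio was 2.82 in KO and 2.28 in DKO. Ccl6 and Ccl9 were lower in KO macrophages, with -0.77 (-0.89 to -0.64) and -0.51 (-0.70 to -0.33), and their DKO intervals included 0. Xcl1 was at 262 CPM in KO and 132 CPM in DKO T cells and at 0 in every other class with 10 or more cells. Ccl25 had 121 UMIs in all. Cx3cl1, Cxcl12, Ccl19, Ccl21a, Ccl20 and Cxcl13, which are known mainly from stromal and epithelial cells, each had under 50 UMIs. In the macrophage over monocyte comparison, 6 of 10 ligands with enough UMIs were 2-fold or more higher in KO and 7 of 9 in DKO, with none 2-fold lower, beside the 22.2% and 26.7% of all genes that differed either way.

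For each receptor with 100 or more UMIs, the genes with the most similar pattern were looked up over 14 profiles, which were 7 classes in 2 libraries, among 7379 genes that were neither receptors nor gate markers. The classes of a library share that library, so the correlations are given as descriptions. Ccr2 was nearest to Ahnak (Pearson r = 0.98), Edem1 (0.97) and Acaa1a (0.97), and Cx3cr1 to Ctnnd1 (0.95), Lima1 (0.94) and Cpq (0.93). Ccr1 was nearest to Mapkapk2 (0.99), Adam8 (0.98) and Lst1 (0.98), and Cxcr4 to Maff (0.96), Ehd1 (0.92) and Hcar2 (0.91). Ccr6 was nearest to Tmem108 (0.997), Cd55 (0.99) and Itpr3 (0.97). Ccr7, whose peak in mature dendritic cells lay in a class too small to enter, was nearest to Cdk13 (0.90), Phlpp1 (0.90) and Mre11a (0.90).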

How the data were processed

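The values used were the deposited whole-number UMI counts of called cells. The authors had aligned the 3′ droplet libraries to mm10 with Cell Ranger 6.0.1, and the shallowest deposited cell held 500 UMIs. Cells were kept when 300 to 5000 genes were detected and mitochondrial genes gave no more than 10% of UMIs, the limits of the study's methods (Python 3.11.15, scipy 1.17.1). The members, gates and gene lists were chosen with earlier results of these data known. Classes came from marker gates: B and T cells needed 2 markers, neutrophils 4, mature and type 1 dendritic cells 3, type 2 dendritic cells 2, monocyte/macrophages 3 of 7, nonclassical monocytes 3 and cells with Arg1 and Nos2 markers 2 of 4. Cells of 2 lineages (31 KO, 2 DKO) and of no gate (201 KO, 58 DKO) entered no class. All 9 receptors and the other receptors and ligands with 50 or more UMIs are named, except 1 that is not reported here.

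UMIs were summed per class and library. Intervals were exact Poisson for CPM, Clopper-Pearson for shares and conditional for ratios, at 95%, with 0.5 UMIs added to each sum in log2 ratios. Limits for 0 used 3 counts. Shares at equal depth are the exact expected share on drawing 1500 UMIs per cell, without the shallower cells. Clusters came from Seurat 5.3.0 (2000 variable genes without the receptors, 30 components, 20 neighbours, resolution 0.8), and a cluster's leading genes were found in at least 25% of its cells and had the highest fold over other cells with 10 CPM added. Doublets were kept, apart from the cells of 2 lineages. The alternatives were no cell filter, 1 more marker per gate, removal of the highest 5% of Scrublet scores (scanpy 1.11.5), clusters in place of gates, median-of-ratios scaling, other minimum UMIs and other depths. The scripts were tested on simulated data.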

Additional observations from a re-analysis of the deposited data

Results flagged for a closer look

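Receptors for which the difference between DKO and KO had one sign in some classes and the other sign in others, each with an interval that left out 0, were looked at again. The difference between classes was not tested, and with 1 library per genotype these are values of 2 libraries. Ccr2 had log2 ratios of DKO over KO of 0.57 in intermediate cells and 0.52 in macrophages, against -1.75 in T cells and -2.43 in nonclassical monocytes, the last on 1 DKO and 19 KO UMIs. Ccr7 had -0.71 in macrophages against 0.75 in unplaced cells, 0.96 in T cells, 0.33 in mature dendritic cells and 1.59 in type 2 dendritic cells, and in neutrophils it had 22 UMIs in 3 of 162 KO cells, 15 of them in 1 cell, and 0 in 41 DKO cells. Ccr1 had -0.29 in macrophages, -0.47 in unplaced cells and -2.01 in T cells, against 1.19 in type 2 dendritic cells, and in B cells it had 5 UMIs in 5 DKO cells and 0 in KO. Cx3cr1 had -1.38 in monocyte-gated cells and -1.51 in unplaced cells, against 1.36 in nonclassical monocytes, and the first of these was -1.12 (-3.67 to 0.34) without the richest cell of each library. Cluster 1, where Ccr7 was at 333 CPM in both libraries, held 178 of 482 KO and 27 of 129 DKO macrophages, and cluster 10, high in Ccr7, held 20 of 316 KO and 15 of 82 DKO unplaced cells. The part of this makeup was not tested.

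Cells of mixed lineage, which passed a lymphoid gate together with a neutrophil or monocyte/macrophage gate or both the B and the T cell gate, entered no comparison. The 31 such KO cells held receptor UMIs above the limit of 3 counts. They had 49 UMIs of Ccr1, 47 of Ccr2, 29 of Ccr7, 9 of Cx3cr1 and 62 of Cxcr4. Their median was 8515 UMIs, above the 4715 of all kept KO cells. Whether they were doublets was not tested.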

How the results depend on the processing

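No paired analysis was possible because each genotype had 1 library and no result came from a test. Of 291 values recomputed under an alternative, 231 stayed within the counting interval of the reported value and 59 did not. The 21 counts of genes among the 291 were judged by a fixed fold in place of an interval. A change of sign was counted only where the reported interval left out 0, and 1 value changed in this way. It was Cxcr4 in monocyte-gated cells, whose log2 ratio of DKO over KO was -0.47 (-1.01 to -0.00) as reported and 0.039 (-0.77 to 0.72) with 1 more marker per gate. Ratios whose interval included 0 could change sign uncounted. That of Ccr1 in monocyte-gated cells was 0.09 as reported and -0.03 without the richest cell of each library. The fall of Ccr2 from monocyte to macrophage was -1.61 in KO with 1 more marker per gate and -0.94 with clusters, and -0.28 in DKO with clusters. The ratio of DKO over KO for Ccr2 over all monocyte/macrophage-gated cells was 0.15 without the cells with Arg1 and Nos2 markers, an alternative chosen after the data were seen, as were those without nonclassical monocytes, with equal class weights, with T cells without Lyz2 and without the cell richest in a gene in each class. The last moved the KO ratio of Cx3cr1 in macrophages over monocytes to 1.53 and, for DKO over KO, brought 0 into the Cx3cr1 interval of monocyte-gated cells and took Ccr7 in macrophages to -1.15 (-1.57 to -0.78). The directions of the Cx3cr1 ratios given for macrophages held under the alternatives run. The number of genes 2-fold or more apart in macrophages over monocytes was 3682 with no minimum of UMIs and 970 with a minimum of 50 in KO, 3830 and 540 in DKO, and 2534 and 352 for DKO over KO. Shares of cells depend on depth: of 36 recomputed at 1500 or 1000 UMIs per cell, 29 moved, and of 74 others 68 did not. Ccr9, Xcr1 and the dendritic cell classes rest on few UMIs or cells, and the 730 DKO cells limit all ratios between libraries.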
